A study of Homo sapiens with 6 samples.

Results

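Of the 26490 gene symbols in the count table, 10 encode the proteins that write, maintain or erase DNA methylation, and all 10 were measured well enough to be tested. They were taken by symbol: DNMT1, DNMT3A, DNMT3B, UHRF1, UHRF2, TET1, TET2, TET3, TDG and MBD4. RNA-seq compared 3 control cultures of SW403, an established human colon adenocarcinoma line whose genotype is given as WT, with 3 cultures of the same line carrying an IRS2 knockdown. IRS2 is an adaptor that passes signals from the insulin and IGF1 receptors. All cultures were grown for 24 h in DMEM with serum and received no treatment. The labels use both knockdown and KO for the cells with lowered IRS2, called knockdown here. They state neither how IRS2 was lowered nor whether the knockdown cells are a clone or a pool. The titles number the 3 cultures of a group as biological replicates but do not say that they came from separate lines. P-values therefore measure the spread between these cultures only.

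DNA methylation in mammals sits mainly on cytosines that are followed by guanine, called CpG sites. DNMT3A and DNMT3B set it on unmethylated DNA. DNMT1 copies it to the new strand after replication, guided by UHRF1, which recognises sites methylated on the old strand alone. The 3 TET enzymes oxidise methylated cytosine with oxygen and 2-oxoglutarate, and TDG and MBD4 are glycosylases that cut damaged or oxidised bases out at such sites so that base excision repair can restore cytosine. Colon tumours commonly gain methylation at CpG-rich promoters and lose it elsewhere. The RNA of these genes was measured here, and DNA methylation itself was not.

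The promoters of the 4 erasers that passed the test given below are shown with their CpG sites. They were chosen by that outcome, which for TET2 was lost in several alternative fits. Each is 300 bases, from 250 before the start of the canonical GENCODE transcript to 50 after it, 5′ to 3′ on the transcribed gene's sense strand in GRCh37, with every CpG in capitals. The TET1 window (chr10:70319844-70320143, plus strand) held 10 CpG sites, the TET2 window (chr4:106067783-106068082, plus strand) 35, the TET3 window (chr2:74211787-74212086, plus strand) 45 and the TDG window (chr12:104359400-104359699, plus strand) 22.
TET1: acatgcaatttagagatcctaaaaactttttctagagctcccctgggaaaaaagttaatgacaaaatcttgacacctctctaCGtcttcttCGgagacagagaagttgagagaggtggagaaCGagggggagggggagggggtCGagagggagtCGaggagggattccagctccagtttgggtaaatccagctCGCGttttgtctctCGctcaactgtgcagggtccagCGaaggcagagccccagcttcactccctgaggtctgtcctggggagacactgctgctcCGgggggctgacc
TET2: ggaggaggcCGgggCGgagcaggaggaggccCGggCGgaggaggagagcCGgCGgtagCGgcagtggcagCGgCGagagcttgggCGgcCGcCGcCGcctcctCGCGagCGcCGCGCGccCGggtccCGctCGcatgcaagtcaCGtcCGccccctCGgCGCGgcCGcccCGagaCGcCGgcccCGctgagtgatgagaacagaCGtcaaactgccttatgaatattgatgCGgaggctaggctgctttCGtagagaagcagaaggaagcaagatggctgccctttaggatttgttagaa
TET3: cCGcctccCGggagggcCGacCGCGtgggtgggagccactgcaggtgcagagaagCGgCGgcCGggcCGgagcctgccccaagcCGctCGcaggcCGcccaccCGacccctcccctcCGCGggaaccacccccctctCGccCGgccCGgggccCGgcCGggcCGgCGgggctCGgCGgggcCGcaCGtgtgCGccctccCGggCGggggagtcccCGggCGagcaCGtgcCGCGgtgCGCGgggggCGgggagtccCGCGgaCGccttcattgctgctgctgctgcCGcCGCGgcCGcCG
TDG: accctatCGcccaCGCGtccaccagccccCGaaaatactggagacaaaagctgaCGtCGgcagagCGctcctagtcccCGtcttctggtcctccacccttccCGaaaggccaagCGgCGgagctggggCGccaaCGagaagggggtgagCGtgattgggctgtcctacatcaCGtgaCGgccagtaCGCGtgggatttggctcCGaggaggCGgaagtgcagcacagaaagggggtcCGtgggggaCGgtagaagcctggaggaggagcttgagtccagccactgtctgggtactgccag
Across the 12606 promoters of tested genes the median was 28 CpG sites, with 20 and 36 at the 25th and 75th percentiles. TET1 stood at percentile 7.3, TDG at 27.9, TET2 at 71.1 and TET3 at 92.6 of CpG number. The other 6 members ranged from 26 sites (UHRF2) to 46 (DNMT3A, percentile 93.8). A relation of CpG number to the RNA differences was not tested. The same windows are in the RefSeq promoter table for 9 of the 10 genes, the exception being DNMT3B.

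DNMT1 and UHRF1 were the members whose windows held an E2F element, the binding word of the factors that drive S phase genes. It was searched on both strands as TTTCCCGC, TTTGGCGC or TTTCGCGC, and 4.61% of the promoters of tested genes held it. The 60 bases around it are shown with the element in capitals, which in both genes lies on the opposite strand and so reads as the reverse complement. The first base of the element lay 2 bases before the start of DNMT1 (shown, chr19:10305598-10305657, minus strand) and 14 bases before that of UHRF1 (chr19:4909473-4909532, plus strand).
DNMT1: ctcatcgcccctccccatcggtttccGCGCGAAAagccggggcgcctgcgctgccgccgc
UHRF1: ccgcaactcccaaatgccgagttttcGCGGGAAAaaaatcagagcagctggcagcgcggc
The GC box GGGCGG was found in 7 of the 10 members' windows, against 75.8% of all promoters. CCAAT was found in 3 members (35.8% of all), CACGTG in 2, TET3 and TDG (10.3%), and the FOXO word GTAAACA in 1, UHRF2 (1.99%). CACGTG contains a CpG. A match to these letters is a description and not a binding site.

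The libraries held 11816973 to 12585013 counts in control and 14329348 to 18114656 in knockdown, so each knockdown library was deeper. Levels are given as CPM, the count scaled to each library's total. IRS2 was at 32.4, 34.8 and 32.2 CPM in control and at 13, 12.3 and 11.9 CPM in knockdown, lower in every knockdown library. Of 10 markers of colon epithelium, 6 were tested, with EPCAM, KRT8, KRT18, KRT19, CDX2 and VIL1 present. CDH1 had 15 counts and LGALS4 3 counts over the 6 libraries. KRT20 and CDX1 had none, which allows up to 0.0347 CPM over the pooled libraries (3 counts, counting error only). Of the 5 leukocyte and 3 endothelial markers none was expressed highly enough to be tested. The 6 fibroblast markers summed to 8.97 to 27.6 CPM in control and 5.80 to 7.29 CPM in knockdown.

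Among the erasers, TET1 and TDG were 1.53-fold and 1.45-fold lower in knockdown and TET3 was 1.24-fold higher. DNMT1 was 1.06-fold higher and UHRF1 1.07-fold lower. In RNA of whole cultures, fewer cells of a kind and less RNA per cell cannot be told apart. Of the 10 members, 6 passed edgeR's quasi-likelihood test at an adjusted p of 0.05, 3 higher (DNMT1, TET2, TET3) and 3 lower (UHRF1, TET1, TDG). Among all 13832 tested genes 38.5% passed, 19.3% higher and 19.2% lower. The count of members past the threshold was 3 without control replicate 2, without knockdown replicate 1 or without knockdown replicate 2. In each case TET1, TET3 and TDG passed. Fewer of all tested genes passed in each of these fits too, although more genes were tested than in the main fit. The fall is therefore not particular to the members, and the range for all genes over the left-out libraries is in the closing section. The members' median log2 fold change (knockdown over control) was 0.01, and their median absolute log2 fold change was 0.10, against 0.14 over all tested genes. In CPM, 4 members (TET3, UHRF1, TET1 and TDG) had groups with no overlap, against 48.4% of tested genes. Scaling by TMM factors, the library scaling used in the test, added DNMT1. No share of all tested genes is given for that scaling.

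**Figure D1:**
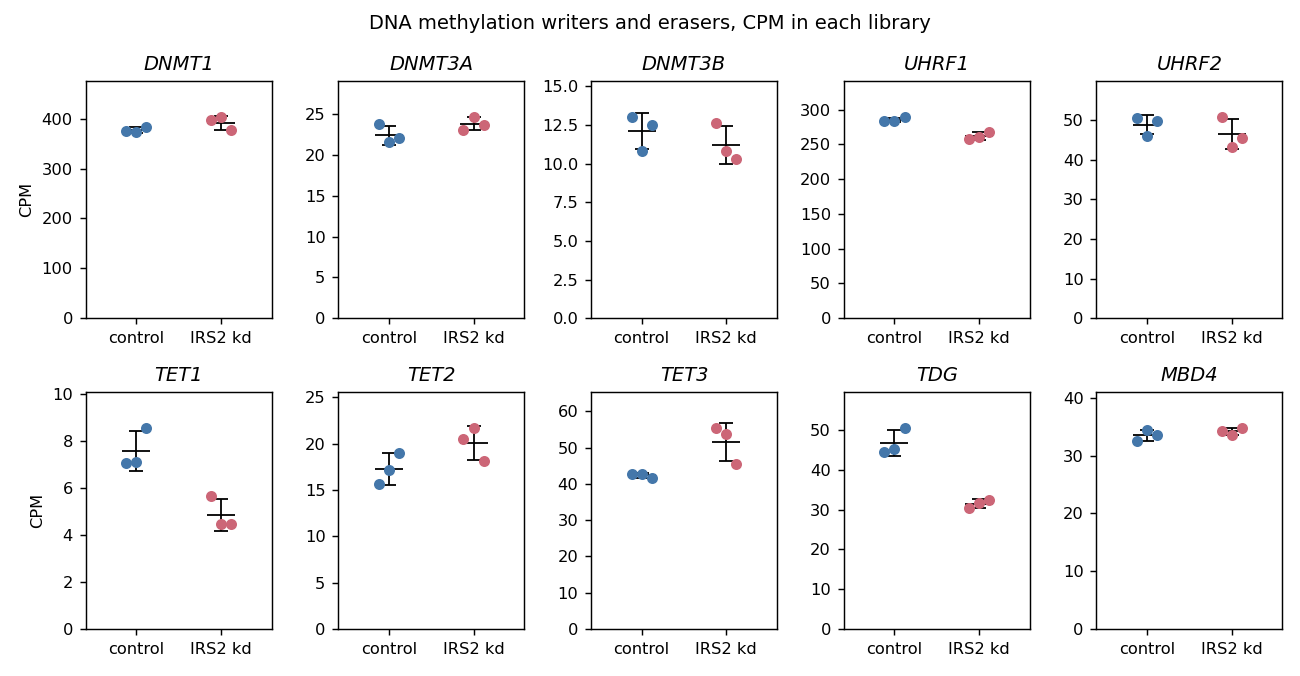
CPM of each of the 10 genes in the 3 control (blue) and 3 IRS2 knockdown libraries (red), with the group mean and SD as black bars and each axis starting at 0. TET1 and TDG sit lower in every knockdown library and TET3 higher, while DNMT3A, DNMT3B, UHRF2 and MBD4 overlap between groups.

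**Figure D2:**
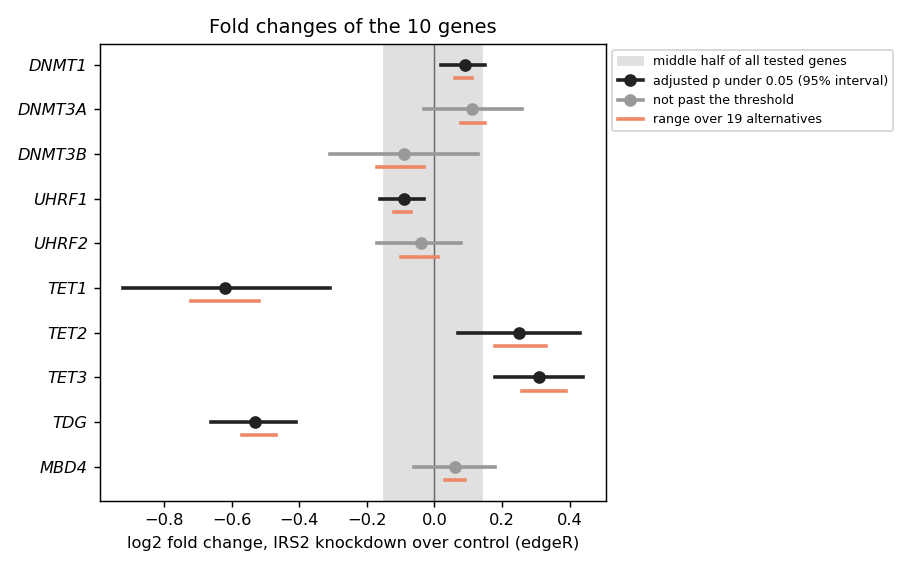
Log2 fold changes of the 10 genes (points) with 95% intervals, dark where the adjusted p was under 0.05, and the range over 19 alternative analyses in orange. The grey band spans the 25th to 75th percentile of all tested genes (-0.15 to 0.14), and TET1, TET2, TET3 and TDG lie outside it.

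Among the maintenance genes, DNMT1 (chr19:10244018-10341962, minus strand, 41 exons), which copies methylation at the replication fork, was the most abundant member in raw counts. It was at 375, 374 and 384 CPM in control and at 398, 403 and 377 CPM in knockdown. The third knockdown library lay within the control range and the other two above it. The log2 fold change was 0.09 ± 0.03 (SE), a 1.06-fold difference, with an edgeR adjusted p of 0.0356. The call was lost with library size alone as the scaling (adjusted p 0.171) and, among others, without knockdown replicate 2 (0.188), without control replicate 2 (0.0989), without control replicate 1 (0.1) and without knockdown replicate 1 (0.0939).

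UHRF1, the ubiquitin ligase that recruits DNMT1 to replicated DNA (chr19:4903092-4962165, plus strand, 18 exons), went the other way. It was at 283, 284 and 289 CPM in control and at 257, 261 and 268 CPM in knockdown, with no overlap. The log2 fold change was -0.09 ± 0.03 (SE), with an edgeR adjusted p of 0.0275. This call was lost in DESeq2 (adjusted p 0.0557) and without control replicate 2 (0.0975), control replicate 3 (0.0873), knockdown replicate 1 (0.118) or knockdown replicate 2 (0.0999). Both differences were thus small, and the p of each crossed the threshold when single libraries were left out.

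UHRF2, the paralogue of UHRF1 that shares its domains and does not replace it in maintenance, was at 50.6, 46 and 49.7 CPM in control and 50.7, 43.3 and 45.5 CPM in knockdown. The ranges overlapped, and the 95% interval of its log2 fold change ran from -0.17 to 0.08 (edgeR adjusted p 0.61).

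The de novo enzymes did not pass the test. DNMT3A was at 23.8, 21.6 and 22 CPM in control and 23, 24.6 and 23.6 CPM in knockdown. The interval of its log2 fold change was -0.03 to 0.26 (edgeR adjusted p 0.207). DNMT3B was at 13, 10.8 and 12.5 CPM in control and 12.6, 10.8 and 10.3 CPM in knockdown. With 136 to 186 counts per library its interval was wider, from -0.31 to 0.13 (edgeR adjusted p 0.544).

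The TET dioxygenases divided. TET1 (chr10:70320094-70454244, plus strand, 12 exons), the least abundant member, was at 7.07, 7.09 and 8.55 CPM in control and at 5.65, 4.45 and 4.47 CPM in knockdown. Every knockdown library was below every control library, on 76 to 101 counts per library. Its log2 fold change was -0.62 ± 0.14 (SE), a 1.53-fold decrease (edgeR adjusted p 0.00211), at percentile 6.85 of the log2 fold changes of all tested genes. TET3 (chr2:74212037-74335303, plus strand, 12 exons), which carries the catalytic domain and a CXXC domain like TET1, was at 42.7, 42.7 and 41.6 CPM in control and at 55.4, 53.6 and 45.5 CPM in knockdown. All knockdown libraries were above all control libraries, the third by the smallest margin. The log2 fold change was 0.31 ± 0.06 (SE), a 1.24-fold rise (edgeR adjusted p 0.000715).

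TET2 (chr4:106067032-106200973, plus strand, 11 exons), which lacks a CXXC domain of its own, was at 15.6, 17.2 and 19 CPM in control and at 20.5, 21.7 and 18.1 CPM in knockdown. Its groups overlapped, since the third knockdown library lay below the third control library. The log2 fold change was 0.25 ± 0.09 (SE), with an edgeR adjusted p of 0.0302. The call was lost in DESeq2 (adjusted p 0.101) and without control replicate 1 (0.161), control replicate 2 (0.0656), knockdown replicate 1 (0.0652) or knockdown replicate 2 (0.154).

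TDG (chr12:104359600-104382652, plus strand, 10 exons), the glycosylase that removes the oxidised bases that TET enzymes make, had the smallest p of the 10 genes. It was at 44.4, 45.1 and 50.5 CPM in control and at 30.3, 31.7 and 32.5 CPM in knockdown, with no overlap. The log2 fold change was -0.53 ± 0.06 (SE), a 1.45-fold decrease (edgeR adjusted p 9.35e-07, rank 493 of the tested genes by p). A processed pseudogene, TDGP1, lies at chr12:25956232-25957460 in GRCh37 and is not a row of the count table, and how reads shared with it were counted is not given in the sources used here, so the level of TDG is uncertain to that extent. DNMT3A, UHRF2 and TET1 also have an annotated pseudogene.

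MBD4, the glycosylase that binds methylated CpG and removes thymine left by deamination there, was at 32.5, 34.5 and 33.6 CPM in control and 34.2, 33.6 and 34.8 CPM in knockdown. The interval of its log2 fold change was -0.06 to 0.18 (edgeR adjusted p 0.439). MBD4 lies wholly within the annotated span of IFT122 on the opposite strand (chr3:129149790-129159022 in GRCh37), and without a stated strand setting reads of the overlapping parts cannot be told apart. For IFT122 the mean CPM was 23.8 ± 1.75 (SD, n = 3) in control and 25.7 ± 2.09 (SD, n = 3) in knockdown, with an edgeR adjusted p of 0.161.

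Ratios of 2 genes within a library do not depend on how libraries are scaled. With 3 libraries against 3 the exact permutation test cannot give a two-sided p below 0.1, and 7 ratios were compared, so none could pass the threshold after adjustment. The log2 ratio of TET1 to TET3 was -2.59, -2.59 and -2.28 in control and -3.29, -3.59 and -3.35 in knockdown, a shift of -0.92 with no overlap (exact permutation p 0.1, adjusted 0.175). That of TET1 to TET2 was -1.14, -1.28 and -1.16 in control and -1.86, -2.29 and -2.02 in knockdown, a shift of -0.86 (exact permutation p 0.1, adjusted 0.175). TET1 thus lost ground against both other family members.

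The ratio of TET2 to TET3 showed no such shift. Its means were -1.30 ± 0.16 and -1.35 ± 0.07 (SD, n = 3 each; exact permutation p 0.8). The log2 ratio of TDG to MBD4 was 0.45, 0.39 and 0.59 in control and -0.18, -0.08 and -0.10 in knockdown, so TDG had the larger count in each control library and MBD4 in each knockdown library. The shift was -0.59 (exact permutation p 0.1, adjusted 0.175). For DNMT1 to UHRF1 the log2 ratio was 0.41, 0.40 and 0.41 in control and 0.63, 0.63 and 0.49 in knockdown, a shift of 0.18 with no overlap (exact permutation p 0.1, adjusted 0.175). The groups overlapped for DNMT3A to DNMT3B (shift 0.20, exact permutation p 0.2) and for UHRF1 to UHRF2 (shift -0.05, exact permutation p 0.7).

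**Figure D3:**
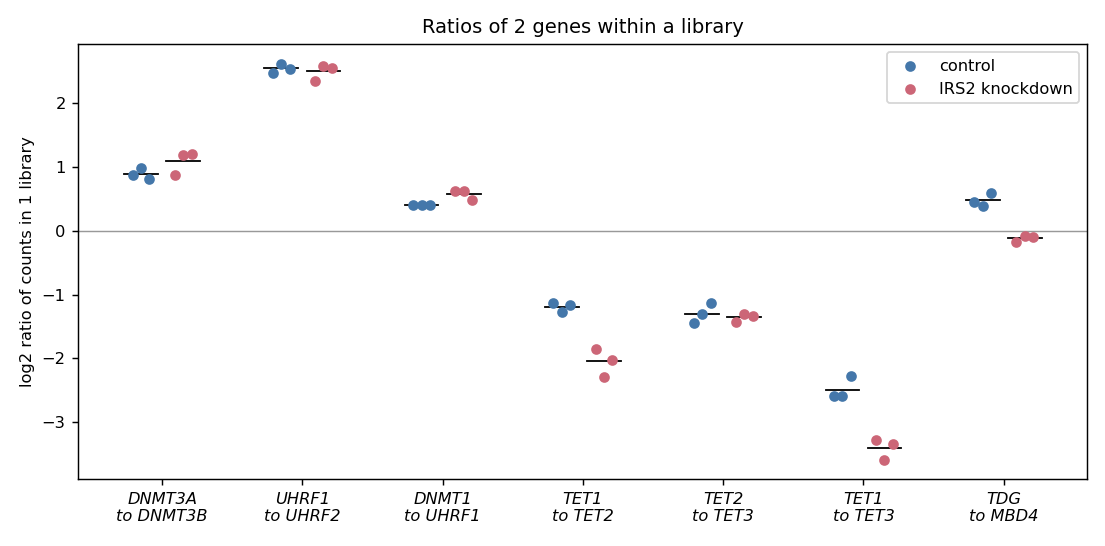
Log2 ratio of the counts of 2 genes in each library, for 7 ratios, with control libraries in blue, IRS2 knockdown libraries in red and group means as black lines. The groups do not overlap for DNMT1 to UHRF1, TET1 to TET2, TET1 to TET3 and TDG to MBD4, and the TDG to MBD4 ratio crosses 0.

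Levels of different genes were compared as CPM per kilobase of the canonical transcript. In control the maintenance genes stood far above the rest, UHRF1 at 73.1 ± 0.791 and DNMT1 at 71.6 ± 1.08 CPM per kilobase (SD, n = 3 each). Their ranges overlapped in control (72.6 to 74.0 and 70.8 to 72.8). In knockdown they did not, with DNMT1 at 71.4 to 76.4 and UHRF1 at 66.1 to 68.7. The distance, the overlap and the order all depend on the transcript model. The longest annotated transcript of DNMT1 has 7157 bases against 5274 for the canonical one, and that of UHRF1 4308 against 3897. With the longest annotated transcript the control levels were 66.2 for UHRF1 and 52.7 for DNMT1, further apart than with the canonical one. DNMT1 above UHRF1 in knockdown therefore holds for the canonical transcripts only.

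Next came TDG (14.7 ± 1.05), MBD4 (14.0 ± 0.413) and UHRF2 (13.6 ± 0.68 CPM per kilobase; SD, n = 3 each), whose control ranges overlapped. TDG was the third of the 10 in control and the fifth in knockdown, at 9.90 ± 0.354. TET3 (3.51 ± 0.0536), DNMT3B (2.80 ± 0.266), DNMT3A (2.38 ± 0.123), TET2 (1.80 ± 0.181) and TET1 (0.787 ± 0.0882) followed in control. Of these neighbours only DNMT3B and DNMT3A overlapped.

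DNMT1 made up 93.3% ± 0.446 of the 3 DNMT genes' summed level per kilobase in control and 93.6% ± 0.187 in knockdown (SD, n = 3 each). The share of TET1 among the TET genes was 12.5%, 12.1% and 14.1% in control and 8.03%, 6.46% and 7.59% in knockdown. TET3 held 60%, 58.3% and 54.5% in control and 62.7%, 61.9% and 61.6% in knockdown, and the share of TET2 overlapped between groups. The 3 TET genes together reached 5.90, 6.07 and 6.32 CPM per kilobase in control and 7.32, 7.17 and 6.13 in knockdown, which overlap. The means of this sum were 6.10 ± 0.212 and 6.87 ± 0.649 (SD, n = 3 each), so the lower TET1 stood beside a summed level that was not lower.

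**Figure D4:**
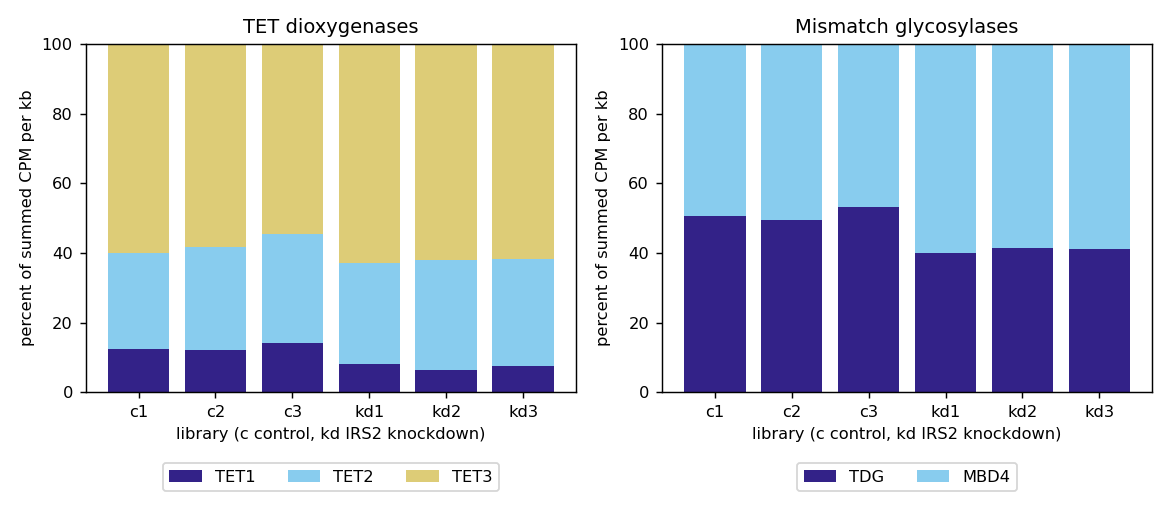
Share of each gene in the summed CPM per kilobase of the 3 TET genes (left) and of TDG and MBD4 (right) in each control (c) and IRS2 knockdown (kd) library, as stacked bars from 0 to 100%. TET1 falls from 12.1-14.1% to 6.46-8.03%, and TDG from 49.6-53.1% to 40.0-41.5%.

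Other genes of the pathway were then read from lists fixed by function. In the methyl donor cycle, which makes the S-adenosylmethionine that DNMT enzymes use, 8 of 13 genes were tested and 6 passed, 5 higher and 1 lower (75%, against 38.5% of all tested genes). MTR, the cobalamin enzyme that regenerates methionine, fell from 72.3 ± 6.25 to 54.7 ± 2.97 CPM (SD over 3 libraries), with a log2 fold change of -0.37 (edgeR adjusted p 3.36e-05). MAT2A, the synthase of S-adenosylmethionine, rose from 594 ± 17.0 to 637 ± 22.8 CPM (SD over 3 libraries), with a log2 fold change of 0.13 (edgeR adjusted p 0.00221), and AHCYL1, a relative of the enzyme that clears S-adenosylhomocysteine, from 134 ± 3.31 to 149 ± 0.64 CPM (log2 fold change 0.18). The median log2 fold change of the tested genes was 0.09. With library size alone, or without control replicate 1, knockdown replicate 2 or knockdown replicate 3, 3 of them were higher.

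Few partners of the methyltransferases passed the test. Of 20 listed, 17 were tested and 2 passed (11.8%, against 38.5% of all tested genes). CDCA7, which activates the chromatin remodeller HELLS at densely methylated DNA, fell from 134 ± 2.99 to 119 ± 1.75 CPM, and USP7, a deubiquitinase that binds DNMT1 and UHRF1, rose from 255 ± 7.82 to 270 ± 4.97 CPM (SD, n = 3 each). Their log2 fold changes were -0.14 and 0.12, with edgeR adjusted p-values of 0.00612 and 0.00776. Without control replicate 1 USP7 missed the threshold (adjusted p 0.05) and 0 partners were higher, and over the other left-out libraries 1 to 4 were.

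Readers of CpG sites split in both directions. The list of readers of methylated CpG and their relatives, MBD3 among them, held 7 genes. All 7 were tested, 2 rose and 3, including MBD3, fell (71.4% past the threshold, against the same 38.5%). The zinc finger proteins ZBTB38 and ZBTB4 had log2 fold changes of 0.32 (edgeR adjusted p 1.55e-05) and 0.28 (8.86e-05). Of 9 readers of unmethylated CpG and TET partners, 8 were tested, 4 rose and 3 fell (87.5%). CXXC5, which binds unmethylated CpG and can bind TET2, rose from 106 ± 2.31 to 135 ± 0.647 CPM (SD over 3 libraries), a log2 fold change of 0.38 (edgeR adjusted p 1e-07). OGT, the glycosyltransferase that binds TET enzymes, rose from 376 ± 11.8 to 449 ± 44.1 CPM (log2 fold change 0.28, edgeR adjusted p 0.000106), with the third knockdown library the lowest of its group, as for TET3. FBXL19, a CXXC protein of CpG islands, fell from 60.1 ± 2.42 to 43.9 ± 1.52 CPM (log2 fold change -0.42, edgeR adjusted p 2.07e-06).

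The list of base excision repair genes included other glycosylases beside the later steps. All 17 listed repair genes were tested, 2 fell and 1 rose (17.6%, against 38.5% of all tested genes). PARP1, which senses the DNA breaks of repair, fell from 495 ± 7.89 to 383 ± 2.30 CPM, and UNG, the uracil glycosylase, from 156 ± 4.39 to 122 ± 5.10 CPM (SD, n = 3 each). Their log2 fold changes were -0.34 (edgeR adjusted p 2.17e-08) and -0.32 (3.1e-06). NEIL3, another glycosylase, had a log2 fold change of 0.18 (edgeR adjusted p 0.0405), a call that was lost in 11 of 19 alternatives, among them leaving out control replicate 1, control replicate 2, knockdown replicate 2 or knockdown replicate 3. Among 13 genes of 2-oxoglutarate supply and of metabolites that inhibit TET enzymes, 2 rose and 4 fell (46.2%, against 38.5% of all tested genes). The count of lower genes was 1 in DESeq2 and without control replicate 2, knockdown replicate 1 or knockdown replicate 2, 2 without control replicate 1, and 6 with library size alone. IDH2, the mitochondrial enzyme that makes 2-oxoglutarate, fell from 28.3 ± 2.27 to 21.0 ± 0.946 CPM (SD over 3 libraries), a log2 fold change of -0.40 (edgeR adjusted p 0.00021), and OGDH, which consumes it, had a log2 fold change of 0.14 (edgeR adjusted p 0.00328). IDH3G had 0.14 too (edgeR adjusted p 0.0193) and lost its call in DESeq2 (adjusted p 0.0613), without control replicate 3 (0.104) and without knockdown replicate 2 (0.0686).

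Cell cycle genes, with which DNMT1 and UHRF1 commonly rise and fall, differed by phase. Of 25 S phase genes, 14 fell and 0 rose in edgeR's test (56.0% of them, against 19.2% lower among all tested genes), with a median log2 fold change of -0.13. PCNA, the replication clamp, fell from 560 ± 11.4 to 459 ± 7.41 CPM, and MCM5, a subunit of the replicative helicase, from 177 ± 3.01 to 142 ± 3.66 CPM (SD, n = 3 each; edgeR adjusted p at most 3.75e-06). Of the genes with a log2 fold change above 0, 1 had an unadjusted p under 0.05, and DESeq2 also gave 0 higher. Without knockdown replicate 1 the count of higher S phase genes was 1. It was also 1 with no low-count filter and with a length and GC correction, with or without a replicate block.

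Of 21 genes of G2 and mitosis, 13 rose and 0 fell (61.9%, against 19.3% higher among all tested genes), with a median log2 fold change of 0.18. At an unadjusted p under 0.05, 0 fell, and DESeq2 also gave 0 lower. KIF23 rose from 155 ± 1.39 to 203 ± 1.61 CPM and KIF20A from 154 ± 2.90 to 190 ± 5.99 CPM (SD, n = 3 each; edgeR adjusted p at most 5.56e-07). The log2 fold change of AURKA was 0.37 (edgeR adjusted p 3.99e-08). The summed level of the S phase list was 6650 to 6660 CPM in control and 6010 to 6130 CPM in knockdown, and that of the mitosis list 4750 to 5050 and 5360 to 5560 CPM. DNMT1, unlike most S phase genes, was not lower, and UHRF1 was, by less than the list's median. The part of these shifts in the values of DNMT1 and UHRF1 was not tested.

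**Figure D5:**
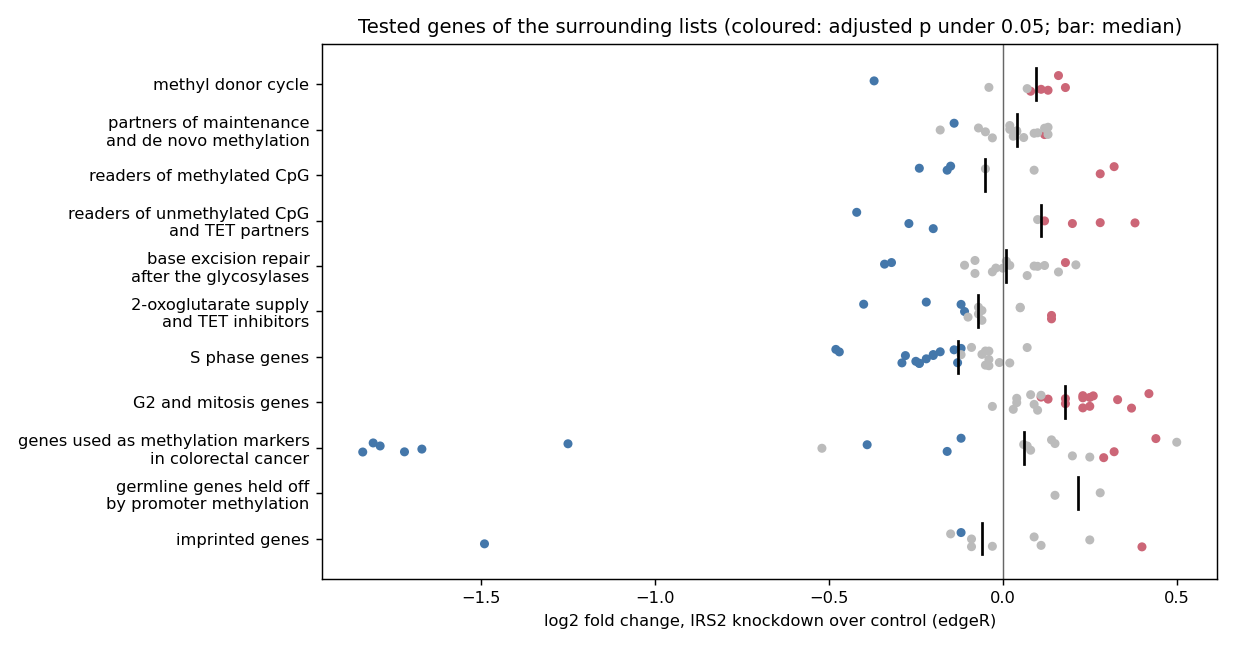
Log2 fold changes of the tested genes of 11 lists, red where higher and blue where lower at an adjusted p under 0.05, grey otherwise, with the median as a black bar. S phase genes lie mostly below 0, mitosis genes above, and 6 colorectal methylation marker genes lie below -1.

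Genes whose promoters are commonly read for methylation were examined next. Of 28 genes used as methylation markers in colorectal cancer, 21 were tested, 9 fell and 3 rose (57.1%, against 38.5% of all tested genes), while the median log2 fold change was 0.06. HLTF, a DNA translocase, went from 21.1, 25.2 and 22.8 CPM in control to 6.98, 7.79 and 6.51 CPM in knockdown (log2 fold change -1.67 ± 0.10 SE, edgeR adjusted p 1.99e-10). BCAT1, an aminotransferase of branched-chain amino acids, fell from 15.5 ± 0.464 to 4.37 ± 0.642 CPM and SDC2, the proteoglycan syndecan 2, from 9.52 ± 0.851 to 2.64 ± 0.234 CPM (SD over 3 libraries), with log2 fold changes of -1.79 and -1.81 (edgeR adjusted p at most 1.51e-08).

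Chosen after their values were seen, UNC5C, ALX4 and TFPI2 had log2 fold changes of -1.84, -1.25 and -1.72 (edgeR adjusted p at most 0.000927), at levels of 4.07, 3.01 and 1.52 CPM in control. RUNX3, APC and CHFR, chosen in the same way, were the genes that rose, with log2 fold changes of 0.44, 0.29 and 0.32. The summed fibroblast markers given above were also lower in knockdown and were highest in control replicate 1, and their part in these falls was not tested. COL1A1 and COL3A1, the fibroblast markers that passed the test, reached 15.3 and 2.70 CPM, and no fibroblast marker was at 0 in all libraries. Without control replicate 1 the number of lower marker genes of the colorectal list was 8. It was also 8 without knockdown replicate 1 and in DESeq2, and 6 to 11 over all 19 alternatives.

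Of 29 germline genes that promoter methylation commonly keeps silent in somatic cells, 11 had no count in any library. TEX15 held 989 counts over the 6 libraries and reached 14.2 CPM, and the next, STK31, held 88 counts and reached 1.35 CPM. These 2 were tested, with log2 fold changes of 0.15 and 0.28 (edgeR adjusted p 0.39 and 0.555, so 0 passed, and 0 at an unadjusted p under 0.05). Summed over the list the level was 13.0 to 15.4 CPM in control and 11.3 to 17.5 CPM in knockdown, which overlap. Of 20 imprinted genes, 10 were tested, 1 rose and 2 fell (30%, against 38.5%). MEST rose from 83.0 ± 2.66 to 107 ± 0.553 CPM, GNAS fell from 655 ± 9.70 to 592 ± 8.89 CPM and SGCE from 2.57 ± 0.204 to 0.896 ± 0.176 CPM (SD over 3 libraries), with log2 fold changes of 0.40, -0.12 and -1.49 (edgeR adjusted p at most 0.00279). Fixed by function with earlier results of these data known, these lists describe the surroundings of the 10 genes and carry no test of their own.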

How the data were processed

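The authors deposited whole-number counts per gene symbol for 6 libraries (whether these are counted reads or rounded estimates is not given in the sources used here) and a second table of normalized signal, deposited without a stated unit, which equals the counts divided by 1 constant per library (0.847 to 1.25, as median-of-ratios size factors). STAR 2.6.1a, Salmon, DESeq2 and hg19 are named, without role or order, in the submitters' processing notes; the annotation, the strand setting and the counting of shared reads are not given in the sources used here. Counts were tested across all genes with edgeR 4.0.16 in R 4.3.3 (TMM factors, filterByExpr, quasi-likelihood F-test, group as the only term), with Benjamini-Hochberg adjustment over 13832 genes and a threshold of 0.05. Standard errors were derived from the fold change and its F statistic. Intervals are at 95%. CPM used total counts. Transcript lengths, loci and promoters came from GENCODE version 44 on GRCh37, the build of the notes. Alternatives used DESeq2 1.42.0 and limma 3.58.1 and are given in the closing section. The main edgeR fit was tested on simulated data, and the alternatives were not. The members, lists and markers were chosen with earlier results of these data known. Named are all members, IRS2 and, from each list, up to 3 genes past the threshold with the smallest p. Others are said to have been chosen after their values were seen. Some genes that this rule names are not reported here.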

Additional observations from a re-analysis of the deposited data

How the results depend on the processing

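The 19 alternatives include the main fit read at an adjusted p of 0.01, which leaves its fold changes as they were. Under all 19 alternatives TET1, TET3 and TDG passed the threshold in the direction reported. Their log2 fold changes ranged from -0.72 to -0.52, from 0.26 to 0.39 and from -0.57 to -0.47, with adjusted p-values of at most 0.0187, 0.00709 and 1.77e-05. DNMT1, UHRF1 and TET2 lost their calls under 11, 9 and 8 alternatives. Of 190 values for the 10 genes, 161 kept direction and side, and 1 reversed: UHRF2, never past the threshold, had 0.01 without knockdown replicate 2. The log2 ratio of UHRF1 to UHRF2 also reversed (range over left-out libraries -0.10 to 0.02), as did that of TET2 to TET3 (-0.14 to 0.03). The number of the 10 genes past the threshold was 3 at an adjusted p of 0.01, where 1 was higher. Of all 13832 tested genes 3714 passed there, 1924 of them higher. With library size alone 1 of the 10 was higher, against 2206 of 13832 genes. Leaving out each library gave 3 to 6 of the 10 past the threshold and 1 to 3 higher. Of all genes, 4319 to 5256 passed in those fits, with 13937 to 14102 tested. The causes were not tested. With the replicate block, 4 of the 10 passed (2 higher, 2 lower), DNMT1 (adjusted p 0.0815) and UHRF1 (0.058) losing their calls. Of all 13832 tested genes 4862 passed with the block. Same-numbered libraries deviated together with correlations of 0.04, -0.01 and -0.10, which gave no sign of pairing. The labels link them by number alone, and whether they share more is not stated. Library size alone moved the median of all genes to -0.035, and 40.8% of its calls were higher, against 50.2%. The correction for length and GC content left 5 of the 10 past the threshold, and 5848 of all 13832 tested genes. Depth limits TET1 and DNMT3B most, with 76 to 186 counts per library. Among the lists, S phase genes lower numbered 13 to 19, mitosis genes higher 11 to 17, and repair genes higher 0 to 4. Of 775 values for 41 other named genes 736 kept direction and side and 0 reversed; SGCE, UNC5C, ALX4 and TFPI2 had no value with a mean of at least 50 counts.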
